A study of Homo sapiens with 12 samples.

Results

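The EGF receptor system was followed through 10 genes: the ligand genes HBEGF, EREG, AREG, TGFA, BTC and NRG1, the receptor genes EGFR, ERBB2 and ERBB3, and ERRFI1, which encodes a feedback inhibitor of EGFR. They were taken by gene name from the deposited count table, in which each name matched 1 row, and are 10 of its 50868 genes. The table holds RNA-seq read counts of 12 libraries from MG63, a human osteosarcoma cell line with features of bone-forming cells, all grown in the same serum-containing medium. In 1 experiment cells received 1 µM anticarin-β or its vehicle for 18 hours, with 3 libraries of each. In the other, cells were transfected with a non-targeting Allstar control siRNA or with siRNA against CCT4 and harvested after 2 days, again with 3 libraries of each; CCT4 is part of the chaperonin complex that folds tubulin and actin. Whether replicates are separate cultures is not stated in the labels, so p-values here rest on a spread between libraries that may be technical. The study was set up to find genes that anticarin-β acts on, with the CCT4 siRNA as the other treatment.

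The ligands are made as membrane-bound precursors and are cut free by metalloproteases, after which they act on the cell that made them or on its neighbours. HBEGF, EREG, AREG, TGFA and BTC bind EGFR, and HBEGF, EREG and BTC bind ERBB4 as well, whereas NRG1 binds ERBB3 and ERBB4. ERBB2 has no known ligand and signals as the preferred partner of the other receptors, and ERBB3 has little kinase activity of its own. Bound receptors feed the RAS-ERK and PI3K-AKT pathways, and several of the ligand genes and ERRFI1 are known to be induced by that signalling in turn. Osteoblasts and osteosarcoma cells are known to carry EGFR and to respond to its ligands.

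Totals per library ran from 13393750 to 17492095 counts, so that 3 counts in 1 library correspond to 0.16 to 0.277 CPM (read counts scaled to a common library size, by the TMM method throughout). The mesenchymal and osteoblast-lineage markers (7 genes) summed to 8810 to 11500 CPM in vehicle, 14300 to 15100 with anticarin-β, 3680 to 3990 with control siRNA and 4740 to 4950 in the libraries labelled CCT4 siRNA, with SP7 at 0 with anticarin-β and control siRNA. The 4 epithelial markers (EPCAM, CDH1, KRT5, KRT14) summed to at most 2.18 CPM in any library, with KRT14 at 0 with anticarin-β, CDH1 and KRT5 with control siRNA and CDH1 in the libraries labelled CCT4 siRNA. The 2 endothelial markers summed to 5.36 to 14.8 CPM over the 12 libraries and the leukocyte marker PTPRC to at most 2.13 CPM. The part of these markers in the changes below was not tested. In those labelled CCT4 siRNA, CCT4 mRNA itself was not lower (177 ± 14.4 CPM with control siRNA and 206 ± 9.18 CPM, SD, n = 3 each; log2 fold change 0.22 ± 0.09, SE, adjusted p = 0.129), so every direction given for that comparison is that of libraries so labelled.

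The sequence around the RefSeq start site (250 bases before it to 50 after, build GRCh38.p14) is shown for 5 genes whose mRNA changed with anticarin-β: HBEGF, EREG and AREG, which rose, and the receptors EGFR and ERBB2, which moved in opposite directions. Each runs 5′ to 3′ on the gene's own strand, and capitals mark a match to a motif. EREG and AREG lie side by side on chromosome 4.
EREG, chr4:74364895-74365194, plus strand: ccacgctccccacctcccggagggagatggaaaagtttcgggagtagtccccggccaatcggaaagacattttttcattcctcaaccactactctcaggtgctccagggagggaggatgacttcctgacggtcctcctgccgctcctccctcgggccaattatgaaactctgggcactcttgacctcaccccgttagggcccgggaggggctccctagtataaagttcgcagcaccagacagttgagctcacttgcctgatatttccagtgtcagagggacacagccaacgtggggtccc
AREG, chr4:74444886-74445185, plus strand: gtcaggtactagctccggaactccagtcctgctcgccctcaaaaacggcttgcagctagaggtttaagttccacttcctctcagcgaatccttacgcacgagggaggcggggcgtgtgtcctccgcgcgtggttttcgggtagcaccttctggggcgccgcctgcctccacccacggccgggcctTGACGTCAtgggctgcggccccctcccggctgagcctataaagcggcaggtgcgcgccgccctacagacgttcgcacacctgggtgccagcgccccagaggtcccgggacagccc
HBEGF, chr5:140346554-140346853, minus strand: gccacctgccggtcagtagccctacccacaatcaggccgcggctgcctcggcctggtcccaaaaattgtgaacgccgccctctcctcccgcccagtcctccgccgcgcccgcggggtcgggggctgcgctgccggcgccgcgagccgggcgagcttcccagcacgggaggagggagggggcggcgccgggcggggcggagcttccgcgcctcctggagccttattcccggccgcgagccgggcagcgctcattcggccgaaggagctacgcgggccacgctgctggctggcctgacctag
EGFR, chr7:55018767-55019066, plus strand: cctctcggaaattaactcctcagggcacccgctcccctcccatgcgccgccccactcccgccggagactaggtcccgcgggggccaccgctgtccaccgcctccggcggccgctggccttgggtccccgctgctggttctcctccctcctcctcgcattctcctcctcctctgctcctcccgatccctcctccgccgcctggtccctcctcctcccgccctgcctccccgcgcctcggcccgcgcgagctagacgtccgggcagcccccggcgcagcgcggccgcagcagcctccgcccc
ERBB2, chr17:39687844-39688143, plus strand: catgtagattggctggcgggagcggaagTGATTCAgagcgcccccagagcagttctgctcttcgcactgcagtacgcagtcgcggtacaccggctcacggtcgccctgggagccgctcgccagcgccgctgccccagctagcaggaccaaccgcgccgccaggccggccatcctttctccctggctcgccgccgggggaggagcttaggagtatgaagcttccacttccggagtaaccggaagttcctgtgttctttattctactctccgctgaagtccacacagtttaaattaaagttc

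Both strands were searched for 3 motifs known to be bound by factors downstream of growth factor and cyclic AMP signalling: the AP-1 site (TGANTCA), the cyclic AMP response element (TGACGTCA) and the CArG box of serum response factor; the first and the second cannot match the same bases. The AREG window holds a cyclic AMP response element whose first base lies at position -65 from the start. The ERBB2 window holds a match to the AP-1 letters at -222, TGATTCA, in which the T in the middle stands for N, any base. The windows of EREG, HBEGF and EGFR hold no match to any of these letters. A second RefSeq start of EGFR (chr7:55109589-55109888), which is not shown, has AP-1 matches at -232 and -136. The counts do not tell from which start a transcript came, for EGFR or for the other genes. Over the 34796 windows of the same length in the table, 7.73% hold an AP-1 match, 1.84% a cyclic AMP response element and 1.30% a CArG box. RefSeq windows were matched for 8 of the 10 genes (not NRG1 and ERBB3), and the windows of TGFA, BTC and ERRFI1 hold none of the 3 motifs.

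With anticarin-β, 4 ligand genes, EGFR and ERRFI1 rose, while ERBB2 fell. HBEGF, which was the most abundant ligand mRNA in every library, rose 5.71-fold, and NRG1 rose 25.9-fold from a low level. EGFR rose 3.16-fold and ERBB2 fell 4.56-fold. In the libraries labelled CCT4 siRNA, HBEGF and EREG rose, ERBB3 was called lower from few counts, and EGFR, ERBB2 and NRG1 did not pass the test. Of the 10 genes, 6 were thus higher and 1 lower with the compound (median log2 fold change 1.24), while 34.9% of all 17717 genes tested were higher and 38.0% lower (median −0.06). For the siRNA, 2 were higher and 1 lower (median 0.16), while 10.7% of all genes tested were higher and 9.04% lower (median 0.01). The filter on low counts let 2 genes in mainly through the group where they are high, AREG (3 anticarin-β libraries and 1 control siRNA library) and ERBB3 (the 3 control siRNA libraries only), so these counts are not support for a pattern. With scaling by library totals alone, which moves the median of all genes to −0.48 for the compound and −0.12 for the siRNA, 5 of the 10 genes were higher and 3 lower with the compound. In RNA from a whole culture, fewer cells that carry an mRNA and less of it per cell cannot be told apart.

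**Figure D1:**
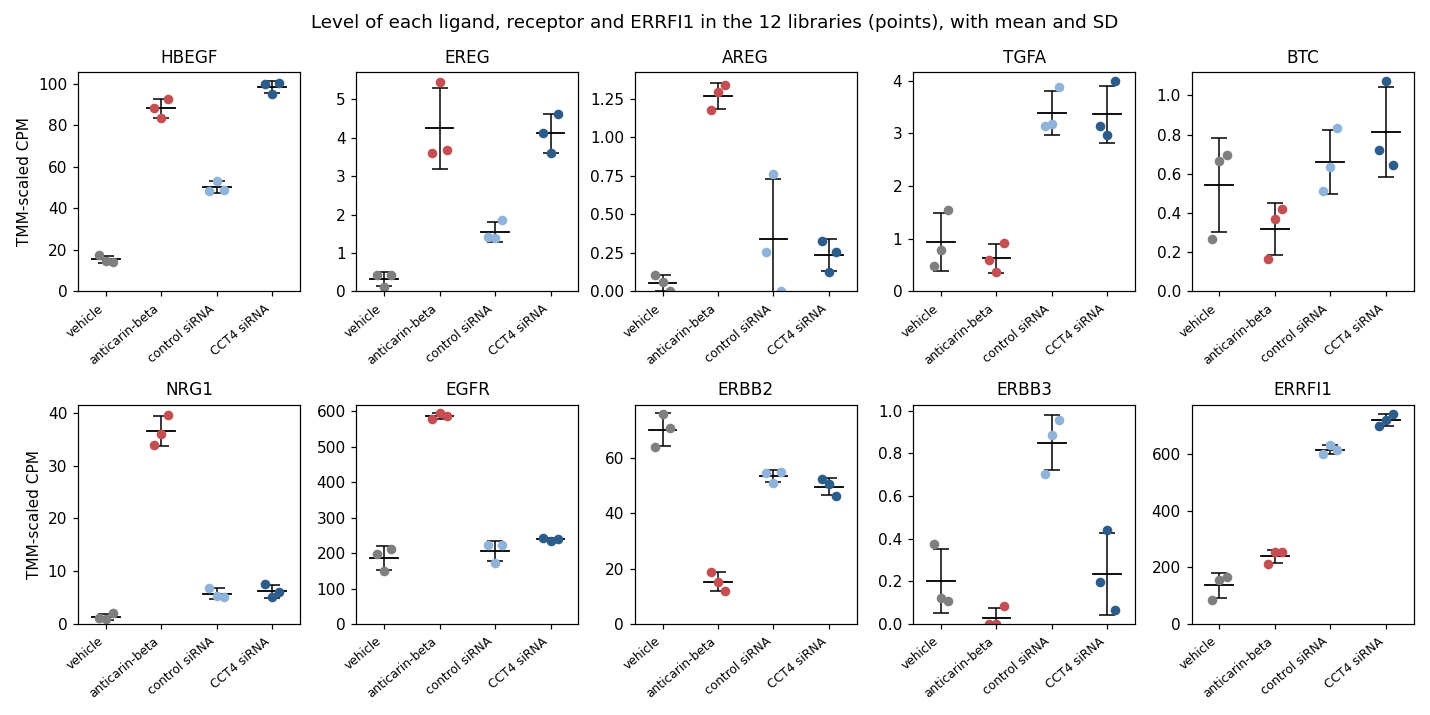
TMM-scaled CPM of each of the 10 genes in the 12 libraries. Points are libraries, the long bar is the mean of 3 and the whiskers are the SD (cut at 0), and each panel has its own linear axis from 0. HBEGF lies between 83.6 and 92.5 CPM with anticarin-β and between 14.3 and 17.5 CPM in vehicle.

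HBEGF encodes heparin-binding EGF-like growth factor, a ligand of EGFR and ERBB4 (ENSG00000113070, chromosome 5, 140332843 to 140346631, minus strand, GRCh38). Its level was 17.5, 14.6 and 14.3 CPM in the 3 vehicle libraries and 88.6, 83.6 and 92.5 CPM with anticarin-β. It was 48.2, 53.4 and 48.8 CPM with control siRNA and 99.99, 95.3 and 100.5 CPM in the libraries labelled CCT4 siRNA. In neither experiment did the treated libraries overlap with their controls. The log2 fold change was 2.51 ± 0.09 (SE) with the compound (15.4 ± 1.76 to 88.2 ± 4.46 CPM, SD, n = 3 each; adjusted p = 1.19e-10) and 0.98 ± 0.08 for the siRNA (1.97-fold; adjusted p = 1.6e-05). The call held under all 23 alternative settings in both comparisons, with log2 fold changes of 2.09 to 2.60 and 0.84 to 1.02.

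EREG encodes epiregulin, a ligand of EGFR and ERBB4 (ENSG00000124882, chromosome 4, 74365143 to 74388751, plus strand). In vehicle it was near the floor, with 8, 2 and 8 counts (0.426, 0.121 and 0.428 CPM), and with anticarin-β it reached 3.61, 5.45 and 3.68 CPM. The siRNA experiment had 1.41, 1.40 and 1.85 CPM in the controls and 4.12, 3.61 and 4.63 CPM in the libraries labelled CCT4 siRNA. Treated and control libraries were apart in both experiments. The increase was 12.5-fold with the compound (log2 3.64 ± 0.34, SE, n = 3 each; adjusted p = 5.98e-07) and 2.64-fold for the siRNA (1.40 ± 0.27; adjusted p = 0.00391). The siRNA call was lost when a change of more than 1.5-fold was required (adjusted p = 0.0973).

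AREG encodes amphiregulin, a lower-affinity EGFR ligand (ENSG00000109321, chromosome 4, 74445134 to 74455009, plus strand), and its start lies 56.4 kb past the end of EREG. Its vehicle libraries held 2, 1 and 0 counts and its anticarin-β libraries 14, 14 and 16 counts. That is 44 counts against 3, or 1.27 ± 0.0851 CPM against 0.0556 ± 0.0534 CPM (SD, n = 3 each), a ratio of 22.8 with a 95% counting interval from 7.32 to 115 (adjusted p = 0.000617). The increase is clear of the vehicle libraries, but its size is known only roughly. AREG passed the low-count filter mainly through the anticarin-β libraries, where it was highest, so its call is no independent support for an increase. The counting interval leaves out the spread between libraries, and the test gave log2 4.33 with a 95% interval from 2.44 to 6.22. In the siRNA experiment the control libraries ranged from 0 to 12 counts (4, 12 and 0) and enclosed those labelled CCT4 siRNA (5, 2 and 4 counts). The log2 difference of −0.49 (95% interval −2.28 to 1.31; adjusted p = 0.735) did not pass there, and without control siRNA replicate 2 it was 0.88. No change of AREG was thus detectable at this depth in that experiment.

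NRG1 encodes neuregulin 1, the ligand of ERBB3 and ERBB4 (ENSG00000157168, chromosome 8, 31639386 to 32767959, plus strand). Its level was 1.17, 0.965 and 2.03 CPM in vehicle and 33.9, 36.0 and 39.6 CPM with anticarin-β. It was 6.92, 5.33 and 5.07 CPM with control siRNA and 7.52, 5.06 and 6.04 CPM in the libraries labelled CCT4 siRNA. The compound libraries were all far above vehicle, and the siRNA groups overlapped. The increase with anticarin-β was 25.9-fold (log2 4.70 ± 0.24, SE, n = 3 each; adjusted p = 2.36e-09). The siRNA difference did not pass (log2 0.11, 95% interval −0.36 to 0.57; adjusted p = 0.780), and its sign turned with library totals alone (−0.03).

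TGFA and BTC encode the EGFR ligands transforming growth factor alpha and betacellulin (ENSG00000163235, chromosome 2, 70447280 to 70554193, minus strand; ENSG00000174808, chromosome 4, 74744759 to 74794686, minus strand). TGFA was 0.480, 0.784 and 1.55 CPM in vehicle and 0.587, 0.370 and 0.920 CPM with anticarin-β, and the groups overlapped (log2 −0.57, 95% interval −1.54 to 0.40; adjusted p = 0.267). In the siRNA experiment it was 3.14, 3.17 and 3.88 CPM in the controls and 3.14, 2.97 and 3.99 CPM in the libraries labelled CCT4 siRNA (log2 −0.01, 95% interval −0.68 to 0.65; adjusted p = 0.982). The TGFA libraries thus overlapped in both experiments. BTC ranged from 0.168 to 1.08 CPM over the 12 libraries and passed in neither comparison (log2 −0.75, adjusted p = 0.195, and 0.29, adjusted p = 0.665). Scaling by library totals alone made BTC lower with the compound (log2 −1.15, adjusted p = 0.0490).

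EGFR encodes the EGF receptor (ENSG00000146648, chromosome 7, 55019021 to 55211628, plus strand). Its level was 197, 149 and 212 CPM in vehicle and 579, 597 and 588 CPM with anticarin-β. With control siRNA it was 223, 173 and 223 CPM, and in the libraries labelled CCT4 siRNA 243, 236 and 239 CPM. Both treated groups lay above their own controls without overlap, narrowly so for the siRNA, and their libraries were closer to each other than the controls were. The log2 fold change was 1.66 ± 0.12 with anticarin-β (186 ± 33.1 to 588 ± 8.65 CPM, SD, n = 3 each; adjusted p = 8.03e-08), whereas 0.21 ± 0.12 for the siRNA did not pass (95% interval −0.05 to 0.48; adjusted p = 0.251). An antisense gene, EGFR-AS1, shares exon bases with EGFR on the other strand and had mean levels from 0.412 to 0.847 CPM in the 4 groups. Which strand setting was used in counting was not given in the sources used here.

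ERBB2 encodes the receptor without a known ligand that pairs with the others (ENSG00000141736, chromosome 17, 39687914 to 39730426, plus strand). Vehicle libraries had 64.0, 75.8 and 70.7 CPM and anticarin-β libraries 18.9, 15.2 and 12.1 CPM. Control siRNA libraries had 54.4, 50.8 and 55.1 CPM and those labelled CCT4 siRNA 52.3, 50.4 and 46.4 CPM. The compound libraries were apart from vehicle, and the siRNA groups overlapped. The decrease with anticarin-β was 4.56-fold (log2 −2.19 ± 0.13, SE, n = 3 each; adjusted p = 1.17e-08), and the siRNA difference was −0.11 (95% interval −0.38 to 0.16; adjusted p = 0.610). ERBB2 overlaps exons of MIEN1 and PGAP3 on the other strand, which had mean levels of 17.8 and 9.20 CPM in vehicle and 26.8 and 5.78 CPM with anticarin-β.

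ERBB3, the neuregulin receptor that relays to PI3K (ENSG00000065361, chromosome 12, 56076799 to 56103505, plus strand), was close to the floor everywhere. It had 7, 2 and 2 counts in vehicle, 0, 0 and 1 with anticarin-β, 11, 14 and 16 with control siRNA and 3, 7 and 1 in the libraries labelled CCT4 siRNA. The control siRNA libraries were the only group in which each replicate exceeded 10 counts. ERBB3 passed the low-count filter through these 3 libraries alone, the group where it was highest, so its siRNA call is no independent support for a decrease. ERBB3 was 3.52-fold lower in the libraries labelled CCT4 siRNA (0.849 ± 0.129 to 0.234 ± 0.192 CPM, SD, n = 3 each; log2 −1.82 ± 0.56; adjusted p = 0.0399). That call was lost in 13 of 23 alternative settings, among them DESeq2 (adjusted p = 0.0929) and the omission of any 1 control siRNA library (adjusted p = 0.0732, 0.100 and 0.103). It was also lost without any 1 anticarin-β library (adjusted p = 0.0504, 0.0516 and 0.0520) and without replicate 1 or 3 of the libraries labelled CCT4 siRNA (adjusted p = 0.124 and 0.139). The compound ratio, 11 counts against 1, was 7.06 with a counting interval from 1.03 to 304 and did not pass (adjusted p = 0.0647), though it did in 5 of 22 alternatives. A same-strand gene that shares exon bases with ERBB3 had 0 counts in every group.

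ERRFI1 encodes the inhibitor also called MIG6, which binds the active kinase domain of EGFR (ENSG00000116285, chromosome 1, 8004404 to 8026308, minus strand). Its level was 86.3, 156 and 168 CPM in vehicle and 214, 253 and 254 CPM with anticarin-β. It was 601, 632 and 615 CPM with control siRNA and 698, 721 and 742 CPM in the libraries labelled CCT4 siRNA. Vehicle replicate 1 was the lowest of its group by a wide gap, and in both experiments the treated libraries lay above their controls without overlap. The compound increase was 1.76-fold (137 ± 44.1 to 240 ± 23.0 CPM, SD, n = 3 each; log2 0.81 ± 0.18; adjusted p = 0.00135). It was lost with library totals alone (log2 0.40; adjusted p = 0.0534) and was 0.56 without vehicle replicate 1. For the siRNA, 0.22 ± 0.18 did not pass over all 12 libraries (adjusted p = 0.421) but did when the siRNA experiment was fitted alone (0.21; adjusted p = 0.0123) or vehicle replicate 1 was left out (0.22; adjusted p = 0.0356), and both fits keep that library out of the estimated spread.

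**Figure D2:**
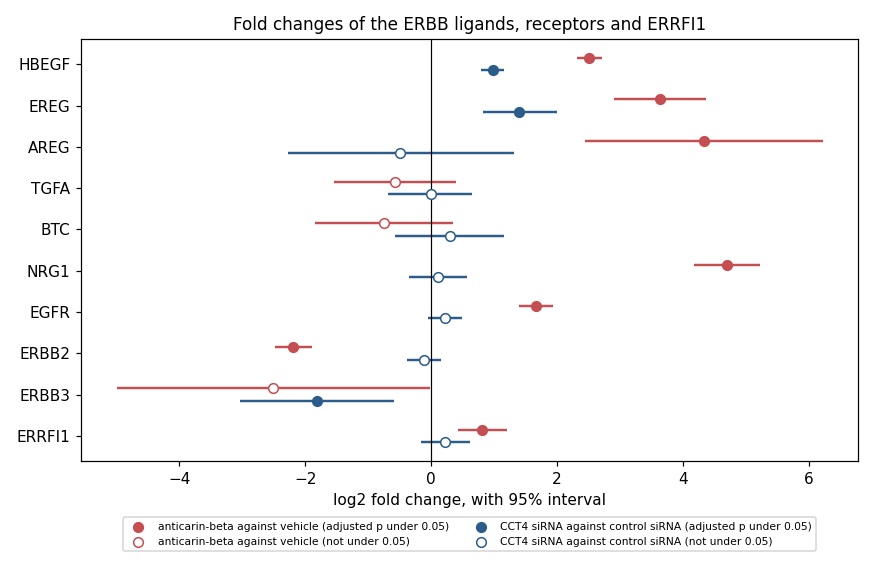
Log2 fold change of each gene with its 95% interval, for anticarin-β against vehicle and for the libraries labelled CCT4 siRNA against control siRNA. Filled points have an adjusted p under 0.05. NRG1 lies at 4.70 and 0.11, and ERBB2 at −2.19 and −0.11, in the respective comparisons.

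Whether the response to the compound differed from that in the siRNA experiment was tested by a contrast over all 12 libraries. The response was larger with anticarin-β for HBEGF, EREG, AREG, NRG1 and EGFR, and more negative for ERBB2. Thus 5 of the 10 genes were higher and 1 lower in this contrast, while 27.5% of all genes tested were higher and 32.4% lower. The log2 differences were 1.54 ± 0.12 for HBEGF (adjusted p = 2.96e-07), 2.24 ± 0.44 for EREG (adjusted p = 0.000796) and 4.59 ± 0.32 for NRG1 (adjusted p = 1.07e-07). Those of the receptors were 1.45 ± 0.17 for EGFR (adjusted p = 1.2e-05) and −2.08 ± 0.18 for ERBB2 (adjusted p = 7.44e-07). For AREG the difference of 4.81 ± 1.25 (adjusted p = 0.00525) was lost without control siRNA replicate 2, the library with 12 counts (3.43; adjusted p = 0.0503). TGFA (−0.55, 95% interval −1.73 to 0.62), BTC (−1.04, −2.43 to 0.35), ERBB3 (−0.70, −3.25 to 1.85) and ERRFI1 (0.59, 0.04 to 1.14; adjusted p = 0.0627) did not pass, and ERRFI1 passed in 8 of 22 alternatives, among them the omission of vehicle replicate 1, 2 or 3 (adjusted p = 0.0158, 0.0461 and 0.0206).

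The controls of the 2 experiments already had different levels of these genes. Mean levels with control siRNA stood to those in vehicle as 4.50 to 1 for ERRFI1, 4.15 to 1 for NRG1, 3.24 to 1 for HBEGF and 3.62 to 1 for TGFA. The same ratio was 4.77 for EREG, 6.09 for AREG and 4.24 for ERBB3, each from few counts in vehicle. For BTC (1.22), EGFR (1.11) and ERBB2 (0.762) it was nearer to 1. Transfection, the time in culture and the experiment itself differ between these controls and cannot be told apart, so no test was made. HBEGF started from 15.4 CPM in one experiment and 50.1 CPM in the other, and ended at 88.2 and 98.6 CPM.

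Levels of different genes were compared as CPM per kb of exon. Among the receptors the order EGFR, ERBB2, ERBB3 held in every library. EGFR was 14.9 ± 2.64 CPM per kb in vehicle and 47.0 ± 0.691 with anticarin-β, and ERBB2 was 6.80 ± 0.572 and 1.49 ± 0.331 (SD, n = 3 each). The EGFR level was thus 1.62 to 2.54 times that of ERBB2 in the vehicle libraries and 25.3 to 40.2 times with anticarin-β. It was 2.81 to 3.38 times with control siRNA and 3.83 to 4.25 times in the libraries labelled CCT4 siRNA. As a share of the 3 receptors' summed level, EGFR went from 61.8% to 71.6% in vehicle to between 96.2% and 97.6% with anticarin-β. These ratios restate the opposite changes of the pair and carry no test of their own.

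**Figure D3:**
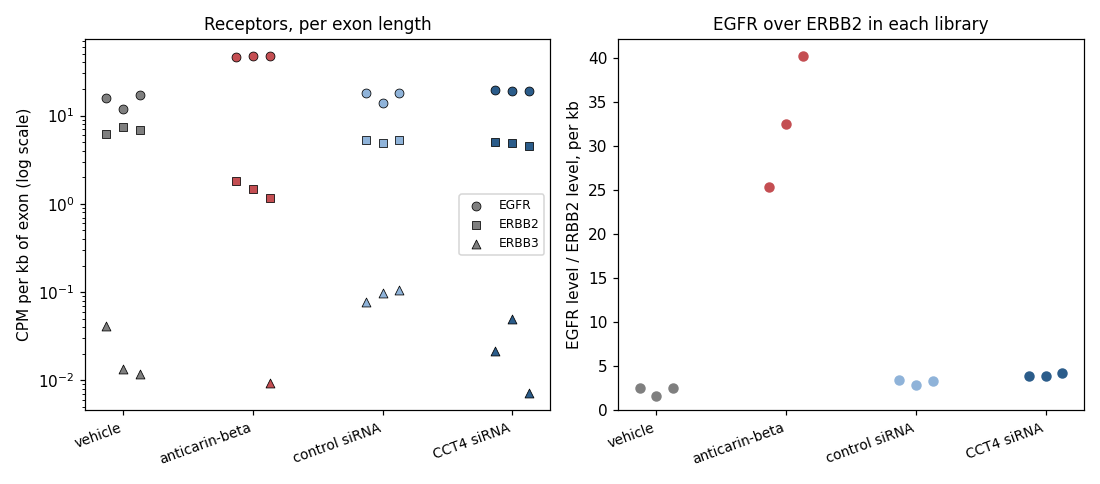
Left, level of EGFR (circles), ERBB2 (squares) and ERBB3 (triangles) in CPM per kb of exon in each of the 12 libraries, on a log axis that cannot show the 2 anticarin-β libraries with 0 ERBB3 counts. Right, ratio of the EGFR to the ERBB2 level in each library, on a linear axis from 0, with the anticarin-β libraries at 25.3 to 40.2 and all others at 4.25 or below.

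HBEGF made up most of the ligand mRNA in every library on the same scale, from 84.4% to 93.7% of the summed level of the 6 ligands. The summed level was 5.37 to 6.22 CPM per kb in vehicle, 32.8 to 35.9 with anticarin-β, 17.8 to 19.7 with control siRNA and 33.7 to 35.8 in the libraries labelled CCT4 siRNA. In vehicle the others of these 6 ligands were near each other. BTC (0.192 ± 0.0848 CPM per kb), TGFA (0.189 ± 0.111) and NRG1 (0.123 ± 0.0499) did not differ beyond their spread, and EREG (0.0568) and AREG (0.0338) were the lowest. With anticarin-β, NRG1 stood second (3.22 ± 0.254 CPM per kb), followed by AREG (0.770 ± 0.0517) and EREG (0.743 ± 0.183), which overlapped, and by TGFA (0.126) and BTC (0.113), which overlapped as well. Among the 6 in the libraries labelled CCT4 siRNA, EREG (0.720 ± 0.0895), TGFA (0.678 ± 0.109) and NRG1 (0.548 ± 0.109) stood together below HBEGF (32.7 ± 0.957). NRG1 was 8.83% to 9.72% of the summed level of the 6 with anticarin-β and at most 3.43% in any other library. NRG2 and EGF, which are outside the 6, had 1.06 and 0.298 CPM per kb in vehicle. NRG2 had 3.60 with control siRNA, 3.52 in the libraries labelled CCT4 siRNA and 0.141 with anticarin-β. It was thus second to HBEGF in every group but anticarin-β. The ERRFI1 level was between 1.31 and 3.14 times that of EGFR in the vehicle libraries and between 1.10 and 1.29 times with anticarin-β. It was between 8.07 and 10.9 times with control siRNA and between 8.61 and 9.28 times in the libraries labelled CCT4 siRNA. The excess of ERRFI1 over EGFR was thus larger in every library of the siRNA experiment.

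The remaining ERBB ligand and receptor genes were EGF, EPGN, NRG2, NRG3, NRG4 and ERBB4. Of these 6, EGF, NRG2 and NRG4 passed the low-count filter. NRG2, a neuregulin like NRG1, moved against it: it fell 7.45-fold with anticarin-β (4.78 ± 0.336 to 0.638 ± 0.267 CPM, SD, n = 3 each; log2 −2.90 ± 0.23; adjusted p = 1.48e-07), and did not pass for the siRNA (16.2 and 15.9 CPM; log2 −0.03, adjusted p = 0.917). EGF (log2 −0.26, adjusted p = 0.494) and NRG4 (−1.31, adjusted p = 0.102) did not pass with the compound. NRG3 had 0 counts in all 12 libraries, and a count of 0 allows a level up to the floor of 0.16 to 0.277 CPM. ERBB4, the other receptor for neuregulins, had 2 counts in the libraries labelled CCT4 siRNA and 0 in the other groups, and EPGN had at most 6 counts in a group. The receptors for NRG1 were thus ERBB3 at 1 count and ERBB4 at 0 counts in the group where NRG1 was highest.

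Genes that release the ligands or restrain the receptors were counted next. Of 10 genes for ligand release, 5 were higher and 2 lower with anticarin-β (median 0.15), against the shares of 34.9% and 38.0% over all genes. Those with the smallest p were ADAM17, the main sheddase of EGFR ligands, at 2.29-fold (111 to 253 CPM; adjusted p = 1.01e-08), ADAM9 at 1.96-fold (479 to 940 CPM) and RHBDF1, an iRhom that steers ADAM17, at 2.46-fold (60.8 to 150 CPM). ADAM12 (log2 0.19, adjusted p = 0.0353) and TIMP3 (log2 0.53, adjusted p = 0.0497) were also higher. The 2 lower genes were RHBDF2 (log2 −0.68, adjusted p = 5.94e-05) and FRMD8 (log2 −1.16, adjusted p = 0.000326). The count depends on scaling, with 3 higher (ADAM17, ADAM9 and RHBDF1) and 6 lower when library totals alone were used. For the siRNA, ADAM9 (1.22-fold) and ADAM15 (1.19-fold) were higher and 0 lower, against 10.7% and 9.04% of all genes. Neither of the 2 passed with library totals alone (adjusted p = 0.106 and 0.289). ADAM17 shares exon bases with IAH1 on the other strand and ADAM15 with DCST1 on its own, so their counts are uncertain.

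Of 13 genes that restrain receptors, 9 were higher and 2 lower with anticarin-β (median 0.79), or 7 and 4 with library totals alone. Over all genes 34.9% were higher and 38.0% lower. PTPRK, a receptor phosphatase known to act on EGFR, rose 6.40-fold (91.2 to 583 CPM; log2 2.68 ± 0.07; adjusted p = 7.61e-12). The ubiquitin ligases CBLB and CBL, which mark active EGFR for breakdown, rose 4.72-fold (15.4 to 73.0 CPM) and 4.41-fold (112 to 495 CPM). LRIG1, a membrane inhibitor of ERBB receptors, went the other way (log2 −1.63). For the siRNA 3 of the 13 were higher and 1 lower, or 3 and 4 with library totals alone, against 10.7% and 9.04% of all genes. CBLB was 1.75-fold lower there (11.7 to 6.71 CPM; adjusted p = 0.000102), whereas CBL was 1.43-fold higher (183 to 261 CPM; adjusted p = 0.00139) and PTPN1 1.29-fold higher. CBLB therefore differed in sign between the 2 experiments, with a log2 difference of the responses of 3.04 ± 0.12 (adjusted p = 1.62e-09). CBL shares exon bases with MCAM on the other strand.

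Genes of the relay from receptor to RAS-ERK and PI3K-AKT were called in both directions, as all genes were. Of 24 genes, 10 were higher and 8 lower with anticarin-β (median 0.09), against 34.9% and 38.0% of all genes tested. With library totals alone, where the median of all genes was −0.48, they were 4 and 15. PIK3CB, a PI3K catalytic subunit, fell 3.84-fold (50.9 to 13.3 CPM; adjusted p = 9.88e-10), and the regulatory subunit gene PIK3R2 fell 2.76-fold. PTPN11, which encodes the phosphatase SHP2 that passes the signal to RAS, rose 2.47-fold (286 to 706 CPM). For the siRNA 5 were higher and 5 lower, or 2 and 7 with library totals alone, against 10.7% and 9.04% of all genes. Among them PIK3CB was 1.54-fold lower, SOS1 1.32-fold lower and AKT2 1.30-fold higher. PIK3CB thus fell in both experiments, more so with the compound (log2 difference −1.32 ± 0.12; adjusted p = 1.2e-06). PTPN11 shares exon bases with RPL6 on the other strand, and PIK3R2 with another gene on its own strand.

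Genes known as transcriptional output of ERK were mostly higher with anticarin-β: 9 of 10, with 0 lower and a median of 2.89, and 8 and 1 with library totals alone. They include SPRY2 (4.51 to 71.7 CPM), SPRY4 (37.0 to 260 CPM) and DUSP6 (12.3 to 98.4 CPM), whose proteins restrain receptor and ERK signalling. With control siRNA their mean levels were 23.2, 175 and 111 CPM, all above vehicle, and for DUSP6 above anticarin-β as well. Genes of this kind had been seen to rise in these libraries when the list was drawn up. The count is thus a description, set beside shares of 34.9% higher and 38.0% lower over all genes. For the siRNA 3 of the 10 were higher and 0 lower (median 0.20), against 10.7% and 9.04% of all genes. The 3 were SPRY4 (1.58-fold), the receptor gene EPHA2 (1.55-fold) and the cyclin gene CCND1 (1.38-fold).

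Other receptor tyrosine kinases were called in both directions, as all genes were. Of 16 genes 14 were tested, and 6 were higher and 7 lower with anticarin-β (median −0.34), or 2 and 8 with library totals alone. Over all genes 34.9% were higher and 38.0% lower. MET, the receptor of HGF, rose 3.35-fold (69.2 to 232 CPM; adjusted p = 2.33e-10), close to the 3.16-fold of EGFR. INSR, the insulin receptor gene, fell 3.60-fold (61.8 to 17.1 CPM) and PDGFRB fell 2.87-fold (61.6 to 21.5 CPM), as ERBB2 did. For the siRNA FGFR4 (1.30-fold) and AXL (1.22-fold) were higher and 0 lower, against 10.7% and 9.04% of all genes. AXL did not pass with library totals alone (adjusted p = 0.213).

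Among 20 genes for ligands of other growth factor receptors, 19 were tested. Of these, 12 were higher and 4 lower with anticarin-β (median 0.55), or 9 and 5 with library totals alone. Over all genes 34.9% were higher and 38.0% lower. BDNF rose 8.80-fold (25.5 to 224 CPM), KITLG, the ligand of KIT, 4.92-fold (21.2 to 104 CPM) and FGF5 3.93-fold (35.7 to 140 CPM). BDNF shares exon bases with BDNF-AS on the other strand and FGF5 with CFAP299 on its own. For the siRNA 4 of the 19 were higher and 3 lower (median 0.13), or 3 and 5 with library totals alone, against 10.7% and 9.04% of all genes. CSF1, the macrophage growth factor, was 1.66-fold higher (1263 to 2100 CPM), HGF 1.29-fold (111 to 144 CPM) and FGF18 2.03-fold (0.851 to 1.74 CPM). Of the other genes named here by smallest p from the lists, NRG2, PTPRK, PTPN1, DUSP6, CCND1, AXL and KITLG also share exon bases with a gene on the other strand.

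**Figure D4:**
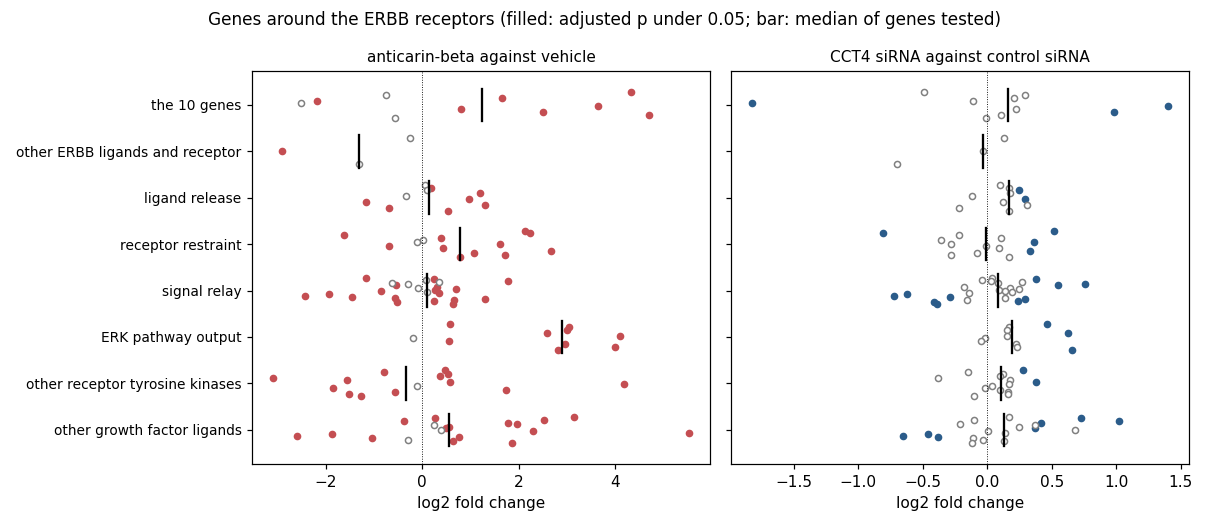
Log2 fold changes of the 10 genes and of the 7 surrounding gene lists, for anticarin-β against vehicle (left) and for the libraries labelled CCT4 siRNA against control siRNA (right); the axes differ in range. Each point is a tested gene, filled where its adjusted p is under 0.05, and the bar is the median, which is 2.89 for ERK pathway output on the left and 0.20 on the right.

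The genes whose levels most resembled those of the most abundant ligand and receptor were taken from 12062 genes by Pearson's r of log2 CPM over the 12 libraries, as a description without a test. For HBEGF they were PIM3 (r = 0.992), FXR2 (0.991), ITPRIP (0.989), SEC24A (0.989) and ANKRD10 (0.988). PIM3 had mean levels of 55.8 CPM in vehicle, 275 with anticarin-β, 171 with control siRNA and 350 in the libraries labelled CCT4 siRNA, the same order of groups as HBEGF. For EGFR they were TEAD1 (0.993), FNDC7 (0.992), NUDT4P1 (0.991), TOPORS (0.991) and TNRC6A (0.989). TEAD1, a DNA-binding partner of YAP, had 77.9, 559, 89.6 and 110 CPM in the same order of groups, high with anticarin-β alone. NUDT4P1 is a near copy of another gene, so its counts are uncertain. These correlations follow the differences between the 4 groups and say little about libraries within a group.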

How the data were processed

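The deposited table holds the authors' raw read counts per gene for the 12 libraries, neither normalized nor pooled. Per the labels' protocols a stranded TruSeq kit was used. The submitters' processing notes name STAR 2.5.2a, featureCounts 1.5.0, Subread and the hg38 build. How strand and multi-mapping reads were counted, and on which annotation release, was not given in the sources used here. Counting without strand could not tell apart reads from bases that a gene shares with another on the other strand. How such reads were handled was not given either.

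Groups came from the labels. In each replicate pair the counts differed by more than sampling noise (chi-square over its degrees of freedom, 8.48 to 26.5). Genes were tested two-sided with the quasi-likelihood test of edgeR 4.0.16 in R 4.3.3. The fit used TMM scaling, filterByExpr on the 4 groups (here 0.668 CPM of the library total in at least 3 libraries) and group means over 12 libraries, leaving 8 residual degrees of freedom. P-values were adjusted by Benjamini-Hochberg over 17717 genes and called under 0.05. Log2 fold changes have a prior count of 0.125, and their standard errors derive from the F statistic. For genes with 1 to 3 counts in a group the ratio of summed counts is given with its 95% interval, which covers counting error only, as do the floors of 3 counts. The test was tried on simulated counts.

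Positions, exon lengths and overlaps are those of GENCODE release 29 on GRCh38, which has 98.51% of the gene identifiers. Start-site sequences are RefSeq's on GRCh38.p14.

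As alternatives, scaling was by RLE, upper quartile or library totals, the tool was DESeq2 1.42.0 or limma-voom (limma 3.58.1), and the low-count filter was dropped or set to 10 counts in every library of 1 group. Other alternatives fitted each experiment alone, added a replicate block, required more than a 1.5-fold change or an adjusted p under 0.01, or left out each library in turn. The 10 genes and the 7 gene lists (99 genes) were chosen with earlier results of these data known. From each list up to 3 called genes per comparison were named, by smallest adjusted p, if the higher group averaged 1 CPM or more. Further called genes of the ligand release and receptor restraint lists were given for the compound. Genes of similar pattern averaged 5 CPM or more in 1 group and were correlated with a prior count of 2.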

Additional observations from a re-analysis of the deposited data

Results flagged for a closer look

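For 6 of the 10 genes the response to anticarin-β differed from the response in the libraries labelled CCT4 siRNA by a test of the difference itself (edgeR's quasi-likelihood test with Benjamini-Hochberg adjustment). In this contrast 27.5% of all genes tested were higher and 32.4% lower, so such a difference was common among all genes. AREG, 1 of the 6, passed the low-count filter mainly through the anticarin-β libraries. The log2 differences, compound minus siRNA, were 1.54 for HBEGF, 2.24 for EREG, 4.81 for AREG, 4.59 for NRG1, 1.45 for EGFR and −2.08 for ERBB2. HBEGF and EREG rose in both experiments and differed in size (5.71-fold and 1.97-fold for HBEGF, 12.5-fold and 2.64-fold for EREG). NRG1, EGFR and ERBB2 passed with the compound and not with the siRNA, and in all 3 the difference kept its call in 22 of 22 alternatives. The AREG difference lost its call without control siRNA replicate 2 (3.43; adjusted p = 0.0503). Levels in the controls of the 2 experiments were unequal for several of these genes, and its part in the differences was not tested.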

How the results depend on the processing

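With anticarin-β, HBEGF, EREG, AREG, NRG1, EGFR and ERBB2 kept direction and call in 23 of 23 alternatives; ERRFI1 lost its call in 2, library totals alone and the 1.5-fold threshold. The number of the 10 genes called lower with the compound was 1, 3 with library totals alone, and 1 to 2 on leaving out a library. For the siRNA, 3493 genes were called, 1892 higher and 1601 lower. With an adjusted p under 0.01 these were 1517, 840 and 677, and with the 1.5-fold threshold 166, 115 and 51, of which 1 of the 10 genes, higher, and 0 lower. Library totals alone gave 902 higher and 2800 lower. Leaving out a library gave 2202 to 4026 called, 1182 to 2214 higher and 995 to 1812 lower, and 0 to 1 of the 10 genes lower; the number called was between 2202 and 2296 on leaving out control siRNA replicate 1 or 2 or any 1 library labelled CCT4 siRNA. That 1 gene, ERBB3, was not called with DESeq2, without the low-count filter or at 0.01 (0 lower in each). With the 1.5-fold threshold all 16 list genes named for the siRNA lost their calls.

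The replicate block called 1050 genes lower for the siRNA and 0 of the 10 genes lower. Same-numbered libraries did not deviate together (r from −0.0308 to 0.0264), so the numbers were not treated as pairs.

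Signs turned in these uncalled differences. For the siRNA, AREG was 0.46 with limma-voom and −1.08 to 0.88 on leaving out a library, NRG1 was −0.03 with library totals alone and −0.05 to 0.25, and TGFA was −0.15 to 0.09. TGFA was −0.95 to 0.00 with the compound and −0.94 to 0.02 in the difference of the responses. ERBB3 was 0.30 with limma-voom in the difference of the responses and −2.90 to 0.12. The cause was not tested. AREG, BTC, ERBB3, TGFA and vehicle EREG rest on few counts, which limits them to large changes.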
